A study of Ovis aries with 18 samples.

Results

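The sperm methylome described here is that of the control rams, Ram410, Ram423 and Ram444, which are 3 of the 6 sperm samples and 3 of the 18 samples in the series. They were chosen by their diet label, and no value of the methionine-supplemented rams enters any comparison. The study fed Polypay rams for 77 days and asked whether extra methionine changed sperm DNA methylation and the transcriptome of the embryos they sired. The control rams ate the basal diet without added methionine and, like the other rams, had free access to forage. The rams of the trial averaged 88 days of age when feeding began, and semen was collected 1 month after it ended. Ejaculates had to pass limits on sperm number and motility, and somatic cells were lysed before DNA was extracted. Each ram gave 1 library, so a ram and its library cannot be told apart, and nothing in the labels says how the rams were related.

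Methylation was measured by reduced representation bisulfite sequencing (RRBS). A restriction enzyme that cuts at a short CG-containing site enriches for CpG-rich DNA, and bisulfite then turns unmethylated cytosines into bases read as T while methylated cytosines are still read as C. In mammalian sperm, DNA with few CpGs is as a rule heavily methylated, whereas CpG islands, many of which lie at promoters, are as a rule free of methylation. The mark sits on both strands of a CpG, because the maintenance methyltransferase copies it onto the new strand after replication. The pair of cytosines of 1 CpG is called a dyad below.

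The deposited table held 1850625 CpG cytosines with at least 10 reads in every sperm sample, 926606 on the forward and 924019 on the reverse strand. Of these, 1813357 lay on the 26 autosomes, 22402 on X and 14866 on 639 unplaced contigs. They belonged to 1297005 dyads, and in 553620 dyads (42.7%) both strands were covered. The median coverage was 22 reads in Ram410, 25 in Ram423 and 23 in Ram444. A single read was therefore worth 4.55, 4 and 4.35 percentage points of level, and a cytosine with 0 methylated reads at the median coverage may still have had a level of up to 13.6%, 12.0% and 13%. On X the medians were 17, 18 and 17 reads. The label of sperm was taken as given, because the imprinted regions that would check it were not analysed here.

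Most of the covered cytosines were unmethylated, and a smaller group was highly methylated. The level, which is the percent of reads that kept the C, was exactly 0% at 70.2% of cytosines in Ram410, 66.8% in Ram423 and 67.2% in Ram444 (68.1% ± 1.84, SD, n = 3). It was 90% or more at 8.94%, 9.10% and 9.36% of cytosines (9.13% ± 0.211). Levels of 10% or less, 0% included, were found at 82.9%, 81.7% and 81.2%, and 5.18%, 5.79% and 5.94% had a level from 20% to 80% (5.64% ± 0.401). The mean level over cytosines was 12.6% in Ram410, 13.2% in Ram423 and 13.6% in Ram444 (13.1% ± 0.485), while the median level was 0% in each. Ram410 thus had the most unmethylated cytosines and the lowest mean, and Ram444 the highest mean. The methylated share of all reads, which weights cytosines by coverage, gave another order, with 15.3% in Ram410, 14.8% in Ram423 and 15.6% in Ram444. These levels describe sites with at least 10 reads in every sperm sample and not the sperm genome as a whole. Of these sites, 59.7% had 10 or more other covered dyads within 100 bp. For its aligned sperm reads, the study reported a higher average share of methylated cytosines at CpGs.

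**Figure D1:**
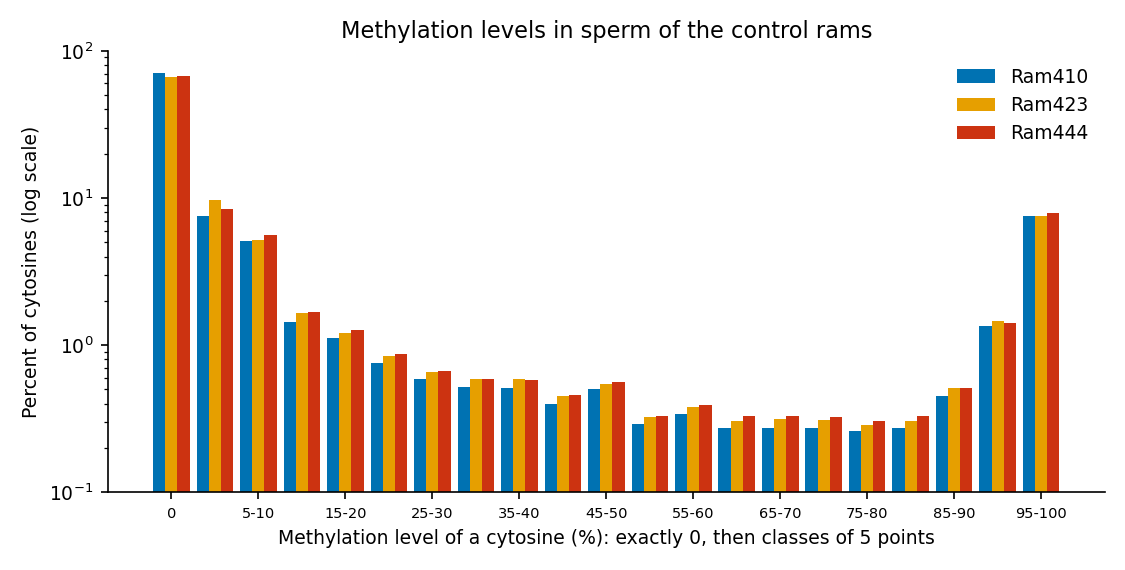
Percent of cytosines (vertical log axis) by methylation level (horizontal axis, exactly 0% and then classes of 5 points), with 1 bar for each control ram. The tall bars stand at both ends, with 68.1% of cytosines at 0% on average and 9.13% at 90% or more, and the rams follow each other through the sparse middle.

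The share at 0% depends on coverage, since a deeper cytosine is more likely to show a methylated read. When 10 reads per cytosine were considered in every ram, the expected share with no methylated read was 77% in Ram410, 75.4% in Ram423 and 74.8% in Ram444. The expected share with only methylated reads was 7.5%, 7.53% and 7.85%. At equal depth, then, Ram410 still held the most unmethylated cytosines and Ram444 the most methylated ones. Dyads with both strands covered had a lower mean level, 7.23% ± 0.442, with 3.91% ± 0.139 of their cytosines at 90% or more. These dyads lay in denser sequence, with 13.3 other covered dyads within 100 bp on average against 10.2 for dyads with 1 strand covered, whose mean level was 21.9% ± 0.550.

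The rams mostly shared the state of a cytosine. In all 3 rams, 940998 cytosines (50.8%) were at 0%, 1458332 (78.8%) were at 10% or less and 149580 (8.08%) were at 90% or more. A level from 20% to 80% in all 3 rams was seen at 55450 cytosines (3%), and a level from 40% to 60% in all 3 at 4892 (0.264%). At the opposite end, 2540 cytosines (0.137%) were at 10% or less in 1 ram and at 90% or more in another. The level of a cytosine therefore differed by its whole range between rams at far fewer sites than those at which the rams shared an extreme.

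Highly methylated cytosines carried most of the methylation, and the points they supplied differed little between rams. Cytosines with a mean level over 80% supplied 9.31 points of the mean level in Ram410, 9.32 in Ram423 and 9.37 in Ram444, or 71.3% ± 2.44 of the total. Cytosines with a mean of 20% to 80% supplied 2.32, 2.64 and 2.86 points. Those over 10% and under 20% supplied 0.312, 0.408 and 0.458 points, and those up to 10% supplied 0.647, 0.814 and 0.864 points. The rise from Ram410 to Ram444 was thus wider among intermediate and sparsely methylated cytosines than among the heavily methylated ones. The classes were set by the mean of the same levels, so a cytosine far lower in 1 ram leaves the class over 80% by construction. The part of this in the narrow rise of that class was not tested. In unmethylated stretches of at least 50 dyads, chosen for a level of 10% or less in every ram, 0.499% of reads were methylated in Ram410, 0.564% in Ram423 and 0.601% in Ram444. This figure holds incomplete bisulfite conversion, sequencing error and real methylation together, and it had the same order over rams as the mean level. Its part in the difference between the means was not tested.

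Methylation fell steeply as covered CpGs became denser. Density was counted as the other dyads with a covered cytosine within 100 bp, so it measures the density of the covered sites rather than of all CpGs in the genome. With no other dyad, the mean level was 73.9% in Ram410, 74.5% in Ram423 and 75.3% in Ram444 (74.6% ± 0.716, 27546 cytosines). With 10 or more, it was 2.06%, 2.39% and 2.60% (2.35% ± 0.269, 1104468 cytosines, 59.7% of all). The difference between these classes was 71.8, 72.1 and 72.7 points (72.2 ± 0.461), which is far larger than the spread between rams. In every density class Ram410 had the lowest mean and Ram444 the highest.

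The classes between them fell in order. The mean level was 60.8% ± 0.790 with 1 to 2 other dyads, 34.6% ± 0.951 with 3 to 5 and 11.8% ± 0.723 with 6 to 9. The spread between rams was widest in points at 3 to 5 dyads. That class, with 12.8% of the cytosines, also held the largest part of all methylation, 33.9% ± 0.326, followed by the class of 1 to 2 dyads with 29.2% ± 0.711. The densest class held 10.7% ± 0.838 of the methylation although it held most of the cytosines.

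**Figure D2:**
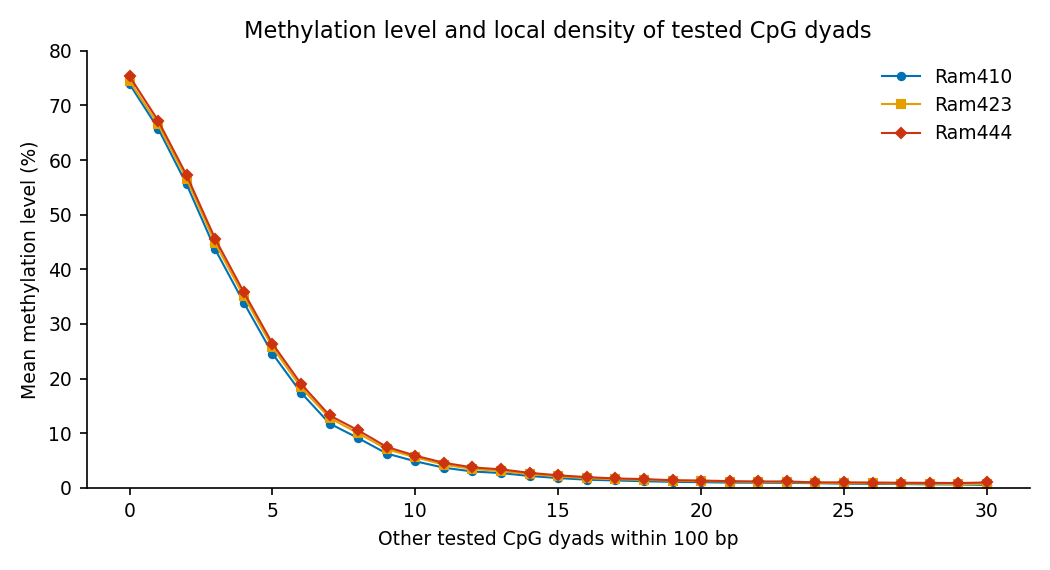
Mean methylation level (%) of cytosines against the number of other covered CpG dyads within 100 bp (the last point pools 30 or more), with 1 line for each control ram. All 3 lines fall from 73.9% to 75.3% for isolated cytosines to a few percent from 10 dyads on, and they nearly coincide.

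Within each class the levels were still mostly at the extremes. Among isolated cytosines, 64.3% ± 0.820 were at 90% or more, 9.76% ± 0.794 were at 0% and 14.4% ± 0.254 lay from 20% to 80%. Among the densest, 81.4% ± 1.78 were at 0%, 0.459% ± 0.054 were at 90% or more and 2.26% ± 0.289 were intermediate. Lower means in denser sequence thus came with a change in the shares of methylated and unmethylated cytosines, and partly methylated cytosines were a minority in both classes. Exceptions ran both ways. In all 3 rams, 1395 isolated cytosines (5.06%) were at 0%, and 3734 of the densest cytosines (0.338%) were at 90% or more. Of the autosomal ones among the latter, 3679 in number, 51.8% lay in the last 5 Mb of a chromosome, which held 16.5% of all densest autosomal cytosines.

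Unmethylated cytosines formed long unbroken stretches, and methylated ones short stretches. A stretch was a run of neighbouring covered dyads, no more than 200 bp apart, whose level met the same limit in every ram. Dyads at 10% or less in all rams numbered 988455 (76.2%), and 94.5% of them lay in 33559 runs of at least 5 dyads, up to 3693 bp long. Dyads at 80% or more in all rams numbered 146049 (11.3%), with 36.8% of them in 7859 runs of at least 5, none of which reached 50 dyads. Dyads from 20% to 80% in all rams numbered 43482 (3.35%), with 21.3% of them in 1367 such runs. The median length of runs was 282 bp for the unmethylated, 83 bp for the methylated and 86 bp for the intermediate class. Since RRBS covers the genome in pieces, these lengths are limited by coverage as well as by methylation.

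The run with the most unmethylated dyads lay on chromosome 9 (chr9:17859087-17862755, Oar_rambouillet_v1.0). Its 288 dyads had a joint level of 0.495% in Ram410, 0.480% in Ram423 and 0.566% in Ram444, and no dyad exceeded 9.09% in any ram. The next were chr17:81967142-81970196 with 280 dyads and chr2:199072571-199075695 with 278, and no ram exceeded a joint level of 0.763% in either. All 3 rams were therefore almost free of methylation over more than 3 kb at each place. The genes at these positions are not named, because no annotation of this build was used here.

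The methylated run with the most dyads, chr3:870066-870438, held 39 of them over 373 bp of dense sequence, with a median of 20 other covered dyads within 100 bp. Its level was 98.1% in Ram410, 95.8% in Ram423 and 98.4% in Ram444. The 2 that followed by number of dyads, chr4:124193950-124194617 and chr17:81697233-81697773, held 30 dyads each and stood between 98.2% and 98.9% in every ram. The intermediate run with the most dyads, 40, was chr15:83450789-83451467, at 53.1% in Ram410, 62.3% in Ram423 and 54.2% in Ram444. In the next, chr12:67407237-67407686, the 28 dyads stood at 33.8%, 42.1% and 45.0%. In the 27 dyads of chr19:61255156-61255619 the levels were 36.6%, 52.2% and 50.1%, so Ram410 was the lowest of the rams in all 3 intermediate runs and apart from the others by over 10 points in the last.

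Chromosomes differed in mean level by much more than the rams did. Chromosome 5 had the lowest autosomal mean, 8.67% in Ram410, 9.13% in Ram423 and 9.47% in Ram444 (9.09% ± 0.4), followed by chromosomes 7 (9.98% ± 0.383) and 11 (10.8% ± 0.463). Chromosome 19 had the highest, 17.5%, 18.2% and 18.5% (18.1% ± 0.503), followed by chromosomes 16 (17.1% ± 0.705) and 21 (16.2% ± 0.560). The gap from lowest to highest was 8.86, 9.08 and 9.05 points in the rams (8.997 for their mean). The SD over autosomes of the mean level was 2.18 points, whereas the SD between rams of a single autosome lay between 0.258 and 0.806 points. The rams did not overlap between the extreme chromosomes, but they overlapped in 23 of the 25 pairs of neighbours in the order.

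The order of the autosomes was shared. Of the 325 pairs of autosomes, 313 stood in the same order in all 3 rams, and Spearman's correlation between rams over the 26 autosomes was between 0.988 and 0.994 (a description, since the autosomes of a ram share a library). Within autosomes the rams had an order too. Ram410 was lowest on all 26, and the order Ram410, Ram423, Ram444 held on 25, with chromosome 25 as the exception. On X the level was 9.63%, 9.91% and 10.4% (9.996% ± 0.412), between chromosomes 7 and 11. The unplaced contigs had 28.3%, 31% and 29.2% (29.5% ± 1.36), with Ram423 highest.

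The gap between autosomes was narrower at equal density. After each autosome was given the same mix of density classes, the range was 7.35 points, and over the 26 autosomes the standardised and plain means had a Spearman correlation of 0.951. Some cytosines were covered extremely deeply, and weighting by reads changed the order. By the methylated share of all reads the range was 18.6 points, and chromosome 4 rose to 29.8%, 26.3% and 27.1% from plain means of 12.0%, 12.5% and 13.1%. Without cytosines of over 875 reads summed over the rams, the read-weighted range was 8.97 points, close to the plain one. Cytosines with at least 300 summed reads were 0.254% of all, held 6.84% of the reads and had a mean level of 33.4% ± 1.42.

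Methylation was higher towards chromosome ends. In the last 5 Mb before the final covered cytosine of each autosome, the mean level was 21.3% in Ram410, 22.4% in Ram423 and 23.4% in Ram444 (22.4% ± 1.03). In autosomal sequence over 5 Mb from both ends it was 9.97%, 10.4% and 10.6% (10.3% ± 0.331). The rams did not overlap between these regions, and the mean of the last 5 Mb was above that of the remainder of the chromosome on 26 of 26 autosomes, by 17.9 points on chromosome 16 but by 0.097 on chromosome 14, the exception in which not all 3 rams were higher. The difference was there at equal density, with standardised levels of 21.1% ± 1 and 10.5% ± 0.336.

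The level was lower farther from the end, though not in an even descent. It was 22.8% ± 1.05 in the outermost Mb, 23.8% ± 1.08 in the third, 18.3% ± 0.903 in the fifth, 12.3% ± 0.374 in the tenth and 10.5% ± 0.348 beyond 20 Mb. The beginnings of the chromosomes were not alike. Sheep chromosomes 1, 2 and 3 are metacentric, with 2 long arms, whereas the other autosomes are acrocentric, with the centromere close to 1 end. In the first 5 Mb of the former the level was 24.0%, 25.4% and 26.5% (25.3% ± 1.25), and in the first 5 Mb of the latter it was 14.8%, 15.6% and 16.0% (15.5% ± 0.605). Both were above the interior in every ram. The last 5 Mb held 17.3% of the autosomal cytosines but 30.4% ± 0.227 of those at 90% or more, and 39.9% of the methylated runs of at least 5 dyads against 13.4% of the unmethylated runs.

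Chromosome ends bore on the differences between autosomes. Without 5 Mb at both ends, a choice made after the data were seen, the range over autosomes was 6.65 points, and the Spearman correlation between the orders with and without the ends was 0.662. On a finer scale, 1771 bins of 1 Mb with at least 200 covered cytosines had mean levels from 0.433% to 69.4%, with a median of 9.46%. The most methylated bin, from 3 to 4 Mb of chromosome 2, was at 64.7% in Ram410, 70.6% in Ram423 and 73.0% in Ram444. The first Mb of chromosome 10, at 57.6%, 57.4% and 52.2%, had the rams in another order, with Ram444 lowest.

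**Figure D3:**
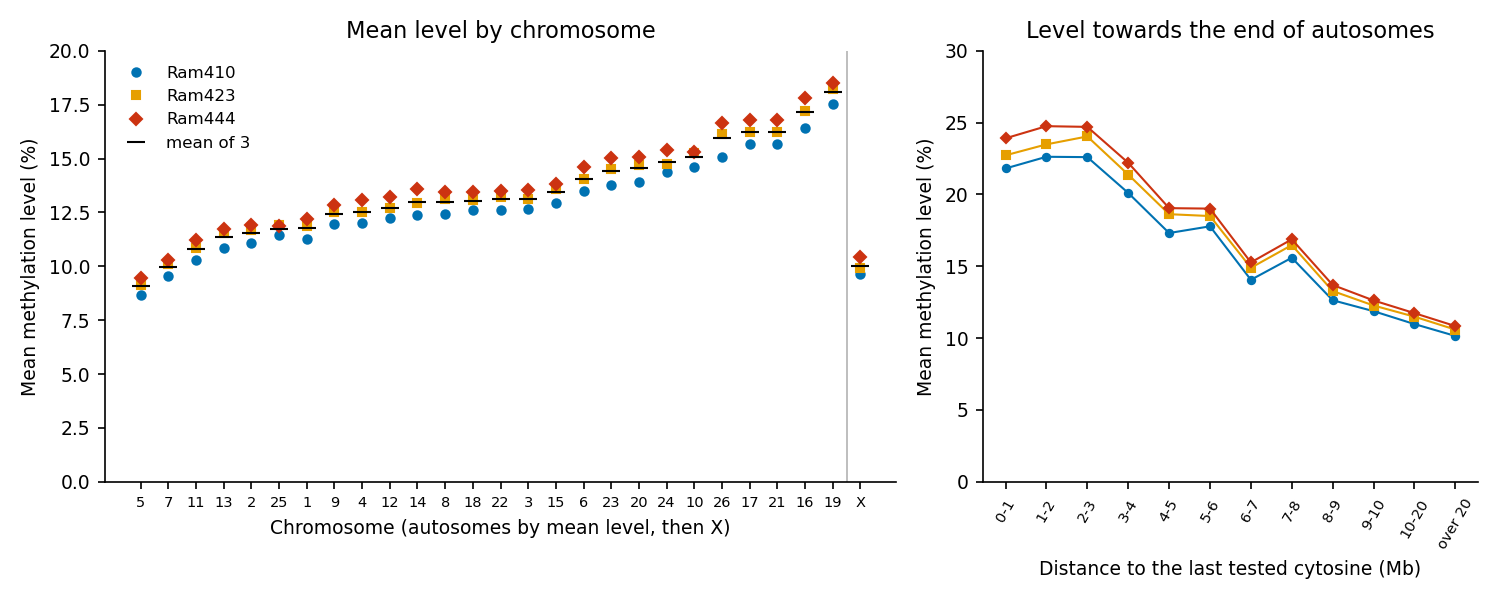
Left, mean methylation level (%) of each autosome, sorted by the mean of the rams, and of X, with a point for each control ram and a dash for the mean. Right, mean level of autosomal cytosines by distance (Mb) to the last covered cytosine of the chromosome. Autosomes range from 9.09% to 18.1%, Ram410 is lowest on each of them, and the level falls from 22.8% in the outermost Mb to 10.5% beyond 20 Mb.

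Nearby cytosines had nearly the same level. Pearson's r over pairs on the same strand 2 to 10 bp apart was 0.955 in Ram410, 0.952 in Ram423 and 0.953 in Ram444, and for 51 to 100 bp it was still 0.909 ± 0.001. It then declined to 0.838 ± 0.002 over 100 to 200 bp, 0.677 ± 0.011 over 200 to 500 bp, 0.286 ± 0.011 over 1 to 2 kb and 0.098 ± 0.005 over 5 to 10 kb. Pairs share a library and, when close, the same reads, so these values are a description. Shared reads can be avoided by taking the cytosines of a pair from different rams, which gave 0.935 ± 0.001 at 2 to 10 bp and 0.284 ± 0.001 at 1 to 2 kb. Cytosines on opposite strands gave 0.922 ± 0.001 and 0.284 ± 0.012.

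Up to 2 kb, the likeness of cytosines was lower once density was taken out. With the mean of its density class subtracted from each level, r was 0.931 ± 0.002 at 2 to 10 bp and 0.813 ± 0.003 at 51 to 100 bp, but 0.517 ± 0.016 over 100 to 200 bp and 0.274 ± 0.017 over 200 to 500 bp. Over 1 to 2 kb, 0.192 ± 0.007 was left. Over 5 to 10 kb the value was 0.104 ± 0.005, not below the plain r of 0.098 ± 0.005 and slightly above it in every ram. In the range from 200 bp to 1 kb, Ram423 had a higher plain r than the other rams, 0.690 against 0.669 and 0.672 over 200 to 500 bp.

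**Figure D4:**
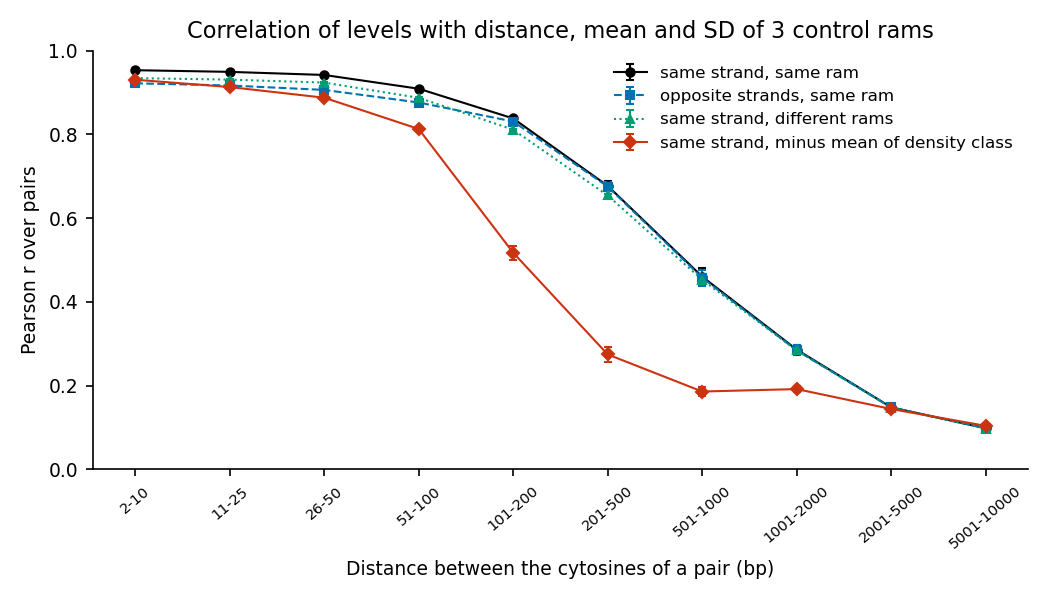
Pearson's r between the levels of pairs of cytosines (vertical axis) by their distance in bp (horizontal axis), as the mean and SD of the 3 control rams. The lines for the same strand, opposite strands and different rams run together, from over 0.922 at 2 to 10 bp to 0.098 at 5 to 10 kb, and the line for levels minus their density class mean drops to 0.517 over 100 to 200 bp.

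The state of the next covered cytosine was followed in the same way. After a cytosine at 90% or more, the next one on the strand was at 90% or more in 92.0% ± 0.289 of cases at 2 to 10 bp, 85.0% ± 0.856 over 100 to 200 bp and 54.2% ± 0.897 over 5 to 10 kb. After a cytosine at 0%, the next was at 90% or more in 0.053% ± 0.006 of cases at 2 to 10 bp, 0.261% ± 0.024 over 200 to 500 bp, 26% ± 0.767 over 1 to 2 kb and 40.6% ± 0.458 over 5 to 10 kb. When the next covered cytosine lay within 500 bp of one at 0%, it was thus rarely at 90% or more. Next cytosines are close where covered sites are dense, and density was not taken out of these shares. Intermediate states were less persistent: an intermediate cytosine was followed by another in 67.9% ± 0.375 of cases at 2 to 10 bp, 52.0% ± 0.6 over 100 to 200 bp and 20.3% ± 0.701 over 5 to 10 kb.

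The strands of a dyad had almost the same level. Over the 553620 dyads with both strands covered, r between strands was 0.978 in Ram410, 0.978 in Ram423 and 0.976 in Ram444, above the 0.955 ± 0.001 between strands of different rams. The forward minus reverse difference of the mean level was 0.002, 0.006 and -0.009 points, so neither strand was favoured. The strands differed by 2.04 points on average without regard to sign, and by over 20 points in 0.941% ± 0.108 of dyads. Among dyads from 20% to 80% the root mean square difference was 14.9 ± 0.371 points, where binomial counting alone gives 14.0 ± 0.418, a variance ratio of 1.12 ± 0.012. Most of the difference between strands in this class was therefore of the size that read counting gives.

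A small number of dyads had unequal strands. The reads of the rams were summed and compared by Fisher's exact test, and a dyad was called when its strands were more than 20 points apart and its q (Benjamini-Hochberg) was below 0.01. This held for 123 dyads, or 0.0222% of those tested, and 5236 dyads had an unadjusted p under 0.05 (0.946%). The forward strand was higher in 66 and the reverse in 57, and 105 of the 123 had the same direction in all 3 rams. Their median difference was 33.9 points, and the medians of the higher and lower strand were 65.3% and 14.5%. In 68 of them a strand also differed by over 20 points between rams. The count was 68 of 189853 (0.0358%) with at least 20 reads on each strand in each ram. Over all dyads it was 77 without Ram410 and 71 without Ram423.

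The gap between rams was widest, per cytosine, where methylation was partial. Pearson's r between rams over all cytosines was between 0.967 and 0.970. The mean level was 0.592 points higher in Ram423 than in Ram410, 0.962 points higher in Ram444 than in Ram410 and 0.371 points higher in Ram444 than in Ram423. To see where these differences lay without using the levels compared, cytosines were classed by the remaining ram. Where that ram was at 20% to 80%, the differences were 4.77, 8.05 and 3.29 points. Where it was at 10% or less they were 0.237, 0.356 and 0.125 points, and where it was at 90% or more 0.139, 0.499 and 0.363 points. The order of the rams was thus the same in all 3 classes, and the gaps were widest at the intermediate cytosines. These were few, 5.94%, 5.79% and 5.18% of cytosines for the 3 differences, against 81.2%, 81.7% and 82.9% at 10% or less. The small gaps of the latter therefore add to the differences in mean level too.

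The spread between rams was close to counting error at the extremes of level and well above it in the middle. For cytosines with a mean over 0% and up to 5%, the observed SD between rams was 3.02 points against 2.98 from binomial counting, a variance ratio of 1.02, and it was 1.02 above 95% as well. The ratio was 1.78 at 10% to 20%, 3.81 at 40% to 60% and 4.65 at 60% to 80%, where the SDs were 20.4 and 9.45 points. Over 20% to 80% it was 3.46, with an observed SD of 18.2 points and 15.3 points left after counting error was removed. The classes were set by the mean of the same levels, so a cytosine methylated in 1 ram and unmethylated in another falls in the middle by construction.

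**Figure D5:**
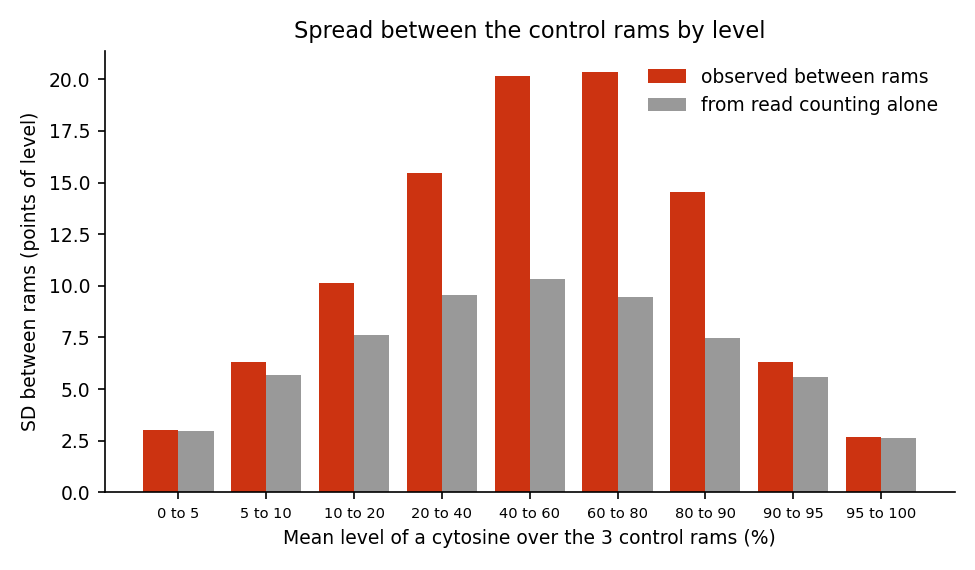
SD between the 3 control rams (points of level, vertical axis from 0) by the mean level of a cytosine (%), as observed (red) and as binomial read counting alone gives (grey). The bars are alike at both ends, 3.02 against 2.98 points at the lowest class, and stand apart in the middle, 20.4 against 9.45 points at 60% to 80%.

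Individual cytosines were then compared among the rams by an exact Fisher-Freeman-Halton test of methylated and unmethylated reads, called at q under 0.01 and a range over rams of over 20 points. The test compares libraries, and reads of a library are not independent animals. It called 11850 of 1850625 cytosines, or 0.64%, and 57237 had an unadjusted p under 0.05 (3.09%). The median range of the called cytosines was 61.5 points. At 2536 of them 1 ram was at 10% or less and another at 90% or more. The called sites were spread over the rams, and Ram410 was farthest from the median ram at 3797, Ram423 at 3674 and Ram444 at 4379. Ram410 was lower at 2681 and higher at 1116 of its sites, and Ram444 was higher at 2342 and lower at 2037. With at least 20 reads in each ram, 6704 of 857449 cytosines (0.782%) were called, and with strands summed 5184 of 553620 dyads (0.936%), so fewer were called among fewer tested and the called share was higher. Comparing only a pair of rams called 4402 without Ram410, 4523 without Ram423 and 3972 without Ram444.

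Called cytosines were commoner where covered CpGs were sparse. The called share was 3.77% with no other dyad within 100 bp, 2.78% with 1 to 2, 1.6% with 3 to 5, 0.657% with 6 to 9 and 0.125% with 10 or more, against 0.64% over all. It was 0.637% on autosomes, 0.625% on X and 1.06% on unplaced contigs. Coverage differed little between these density classes, with medians of 22 to 26 reads. Level did differ, and a cytosine at 10% or less in all 3 rams cannot reach the range of over 20 points. Such cytosines were 10.8% of those with no other dyad and 93.5% of those with 10 or more. The part of density apart from level was not tested. The levels of the called cytosines lay mostly, but not only, in 3 classes. In Ram410, 26.8% were at 10% or less, 18.8% from 40% to 60% and 28.9% at 90% or more. In Ram423 these shares were 19.96%, 21.4% and 32.1%, and in Ram444 17.6%, 22.9% and 32.2%. Other levels were not rare: 17.3%, 13.7% and 10.6% of called cytosines in Ram410, Ram423 and Ram444 were at over 10% to under 40%. At over 60% to under 90% the shares were 8.23%, 12.8% and 16.6%. Over all cytosines, 1.75% ± 0.116 were from 40% to 60%. With a range of over 20 points needed for a call, called cytosines cannot be at 10% or less in every ram, so these sets are not alike.

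The other strand of the CpG mostly shared the difference, whereas neighbouring CpGs often did not. For 4305 called cytosines the other strand was covered too, and in 92.0% of these it differed by over 20 points in the same direction between the same rams. For 10226 called cytosines at least 1 other cytosine lay within 50 bp on the strand. The mean of these neighbours differed by over 20 points in the same direction in 45.5% of cases and by less than 10 points in 46.0%. By these limits, some differences between rams were not seen in the mean of the neighbours and others were shared by it. The remaining cases met neither limit, and 1624 called cytosines had no neighbour within 50 bp. Of 1150 called cytosines with neighbours within 10 points and the other strand covered, the other strand followed by over 20 points at 1083 and was within 10 points at 42. Sequence differences between the rams were not analysed here, and their part in the differences was not tested.

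Windows of 200 bp, at steps of 50 bp and with at least 3 cytosines, gave the regional view. A likelihood-ratio test of ram in a logistic regression on the summed reads called 23296 of 567309 windows, or 4.11%, at q under 0.01 and a range of over 20 points, and 118114 had an unadjusted p under 0.05 (20.8%). The reads of a window cover several cytosines each, so its counts are not independent and the test is too ready to call. The called windows merged into 6118 regions with a median of 6 cytosines. Ram410 was the lowest ram in 3160 regions and the highest in 1062, whereas Ram444 was the lowest in 1107 and the highest in 3101. Among the 1830 regions with at least 10 cytosines, Ram410 was lowest in 1149 and highest in 152, and Ram444 was highest in 1149. The regional differences thus leaned in the direction of the ram means. Without Ram410 the windows called were 12298, without Ram423 14185 and without Ram444 11449.

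Few regions changed state outright. The range over rams was over 50 points in 383 of the 6118 regions and over 80 points in 39. Of the windows in the last 5 Mb of autosomes 7.96% were called, against 3.28% elsewhere on autosomes, and those 5 Mb held 1938 regions (31.7%) against 18.0% of the tested windows. The same 5 Mb held 28.2% of the intermediate runs of at least 5 dyads. A window at 10% or less in all 3 rams cannot be called. Mean levels were higher in the last 5 Mb (22.4% ± 1.03) than over 5 Mb from both ends (10.3% ± 0.331). The part of level in the called shares was not tested.

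Of the 5 regions with the smallest p, 3 were long stretches in which 1 or 2 rams were unmethylated. At chr1:297013151-297014000, all 36 cytosines were called, and the joint level was 0.758% in Ram410, 98.2% in Ram423 and 96.2% in Ram444. At chr2:1106201-1106700, 27 of 28 cytosines were called and the rams stood at 0.327%, 40.9% and 86.3%, so that none was near another. At chr13:35549151-35549650, all 32 cytosines were called, with 0.985% in Ram410, 57.6% in Ram423 and 4.77% in Ram444. Coverage in these 3 regions was ordinary, from 10 to 36 reads per cytosine and ram, and Ram410 was the lowest ram in each.

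The other two of the 5 were extremely deep. At chr3:132342751-132342950 the 8 cytosines stood at 69.2% in Ram410, 73.9% in Ram423 and 46.1% in Ram444, with up to 5330 reads at a cytosine. On an unplaced contig, 12 cytosines stood at 84.0%, 71.9% and 62.8%, with up to 14592 reads at a cytosine. The deepest cytosine of each ram had 49632, 43080 and 43794 reads, while the 99th percentile was 45, 49 and 45.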

How the data were processed

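The authors demultiplexed single-end reads with bcl2fastq, trimmed them with Trim Galore, aligned them with Bismark and Bowtie2, removed PCR duplicates by unique molecular identifiers, and kept CpG cytosines with at least 10 reads in all 6 sperm samples. They deposited, for each ram, the coverage and the counts of methylated and unmethylated reads per cytosine on Oar_rambouillet_v1.0. Coverage equalled the sum of the counts in 100% of values. The embryo gene counts were not used here.

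Levels (methylated reads divided by coverage) were computed for the 3 control rams, with the mean and SD over rams, in Python 3.11.15 (numpy 2.4.6, pandas 2.3.3, scipy 1.17.1, numba 0.67.0, matplotlib 3.10.9). Two-sided exact tests were adjusted by Benjamini-Hochberg over all cytosines or dyads; 150 cytosines and 73 dyads whose read counts were too large to enumerate kept a likelihood-ratio p. The exact and likelihood-ratio tests were first run on simulated counts of single, independent cytosines. The calling of windows and of unequal strands was not simulated. Distances to chromosome ends were taken from the last covered cytosine. p-values and intervals cover counting error only, and with 1 library per ram no test is over animals.

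The measures and classes were chosen with earlier results of these data known. Named items were the 3 autosomes with the lowest and the 3 with the highest mean, the 3 runs with the most dyads per class, and the 5 merged windows with the smallest p. Named too was X. Chromosomes 4, 14 and 25 and the extreme 1 Mb bins were added after their values were seen. Alternatives changed coverage limits, strands, density radius, thresholds and the rams included. Promoters, imprinted regions and sequences need an annotation or genome of this build and were not analysed here.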

Additional observations from a re-analysis of the deposited data

How the results depend on the processing

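No alternative changed the sign of a value, but most of the values, such as levels, shares and counts, cannot be negative. The order of the rams in mean level changed with weighting by reads (15.3%, 14.8% and 15.6% in Ram410, Ram423 and Ram444). Of 88 alternatives, 46 left a value within the spread between rams, or a count within 1.5 times, and 42 moved it. For the variance ratio, which has no value per ram, the spread was the SD of the 3 ratios with 1 ram left out (0.208). Leaving out 1 of the 3 rams cannot shift a mean over rams by as much as their spread. For such means these alternatives were bound to fall among the 46. The cause of a move was not tested unless named. With at least 20 reads in each ram (857449 cytosines, so fewer were tested), the mean level was 13.6%, the share at 0% 65.4%, at 90% or more 9.97% and from 20% to 80% 5.21%, the isolated minus dense difference 78.9 points, the autosome range 8.81 points, r 0.960 at 2 to 10 bp, 0.315 at 1 to 2 kb and 0.981 between strands, the variance ratio 4.30, and the calls 6704 cytosines and 68 dyads. With strands summed (553620 dyads, a subset whose mean level was 7.23% before summing too), these were 7.23%, 62.8%, 3.92%, 4.45% and 65.0 points, with a variance ratio of 5.45 and 5184 calls. The methylated share of all reads was 15.3%, with an autosome range of 18.6 points; the range was 7.35 at equal density and 6.65 without 5 Mb at the ends, where the isolated minus dense difference was 73.1 points (both chosen after seeing the data). That difference was 57.5 points with density counted within 50 bp (0 against 5 or more) and 79.3 within 250 bp (0 against 20 or more). At 2 to 10 bp, r was 0.931 after density class means were subtracted, 0.922 for opposite strands and 0.935 for different rams; at 1 to 2 kb it was 0.192 after subtraction; strands of different rams gave 0.955. Windows called were 14700 (3.40% of those tested) with at least 5 cytosines and 14032 (3.33%) with the forward strand alone. Leaving out a ram gave 71 to 87 unequal dyads, 3972 to 4523 cytosines, 11449 to 14185 windows and variance ratios of 3.48 to 3.85 (the last without Ram423). The exact test in place of the likelihood-ratio test called 23133 windows, and the reverse exchange 13014 cytosines. No paired analysis was possible because the comparisons lie within 1 group. Promoter levels of gene lists were not run. With 3 rams, a spread between animals is estimated loosely; with about 23 reads, a single level is uncertain by several points; and sites with under 10 reads in any of the 6 sperm samples are not covered. Density, runs and chromosome ends refer to covered sites alone.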

Other observations

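The unplaced contigs differed from the chromosomes in the control rams. A level from 20% to 80% was found at 56.7% of their 14866 cytosines in Ram410, 60.4% in Ram423 and 57.7% in Ram444 (58.3% ± 1.95, SD, n = 3), against 4.78%, 5.36% and 5.53% on autosomes. Only 2.36% ± 0.197 were at 90% or more and 12.4% ± 0.743 at 0%. Their median coverage of 46, 41 and 42 reads was above that of the autosomes, and its part in these levels was not tested.

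On X, 75.6% ± 1.50 of cytosines were at 0% and 6.74% ± 0.134 at 90% or more, and the density-standardised level was 8.60% ± 0.386. X had fewer cytosines in dense sequence than any autosome, 48.4% with at least 10 other covered dyads within 100 bp, and 146 covered cytosines per Mb. Over the 26 autosomes the mean level had a Pearson correlation of -0.409 with the percent of dense cytosines and of 0.965 with the percent at 90% or more, given as a description.

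The mean level had no steady relation with depth. It was 10.7% ± 0.531 at cytosines with 30 to under 60 reads summed over the rams, 15.3% ± 0.508 from 60 to under 90, 10.6% ± 0.341 from 90 to under 120, 14.1% ± 0.513 from 120 to under 300 and 33.4% ± 1.42 at 300 or more. Among the last, Ram423 was the highest ram with 35.1%, against 32.4% in Ram410 and 32.8% in Ram444, and it was highest too from 120 to under 300.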
